A study of Mus musculus with 48 samples.

Results

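The genes described here are 10 feedback inhibitors of the RAS, RAF, MEK and ERK pathway, the MAP kinase cascade that carries signals from growth factor receptors to the nucleus. They are the Sprouty genes Spry1, Spry2 and Spry4, the Sprouty-related genes Spred1, Spred2 and Spred3, and the dual-specificity phosphatase genes Dusp4, Dusp5, Dusp6 and Dusp7. All 10 were found by symbol among the 30743 gene rows of the count table, and 9 passed the filter on low counts. Spred3 did not pass it and is given by its levels only. The set was named because of how some of its genes behaved between ACF and sham libraries, so their ACF values are a description and no test is read from them. Sham comparisons between strains and between mitochondrial backgrounds were tested. Those in the separate set of sham libraries use none of the ACF experiment's libraries, while those within that experiment share its sham libraries with the ACF differences.

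Sprouty and Spred proteins act near the receptor and hold back activation of RAS and RAF. The 4 phosphatases remove the activating phosphates from MAP kinases further down. Dusp6 and Dusp7 are cytoplasmic enzymes with a preference for ERK, Dusp5 is a nuclear ERK phosphatase, and Dusp4 is a nuclear enzyme that also accepts other MAP kinases. Several of these genes, Spry4 and Dusp6 among them, are themselves switched on by ERK signalling, which makes a feedback loop, and their messages are often read as markers of pathway activity. In the heart, ERK signalling is known for its part in growth of cardiomyocytes under load.

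RNA of mouse heart cells labelled cardiomyocyte was sequenced in 48 libraries taken on day 3. The mice were mitochondrial-nuclear exchange (MNX) animals, which combine the nuclear genome of one inbred strain with the mitochondrial genome of another, and wild-type (wt) animals of the C57BL/6J (C57) and C3H/HeN (C3H) strains. ACF names the surgery of this volume overload study (commonly aortocaval fistula), and sham surgery is its control. In 24 libraries the title names the surgery, giving 8 groups of 3: C3H MNX ACF, C3H MNX sham, C57 MNX ACF, C57 MNX sham, C3H wt ACF, C3H wt sham, C57 wt ACF and C57 wt sham. The other 24 titles carry no surgery word and all are labelled sham, with 6 libraries each of C3Hn:C3Hmt, C3Hn:C57mt, C57n:C3Hmt and C57n:C57mt, where n stands for the nuclear and mt for the mitochondrial background. Levels are normalised counts scaled to the library total (CPM, counts per mega counts, M). Both sets were normalised separately, so levels are not compared between them. Libraries held 15.89 to 20.77 M counts in the ACF experiment and 15.97 to 26.09 M in the other set. Separate animals within a group are not stated in the labels, so the spread between libraries may be partly technical.

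Some labels and libraries need care. The genotype tag of C3H MNX titles is C57n:C3Hmt, and that of C57 MNX titles is C3Hn:C57mt. A score of 157 genes, 0 at a C57 and 1 at a C3H nuclear profile, was chosen on the wild-type libraries of the set without surgery words. It gave 0.83 to 0.917 in the C3H MNX libraries and 0.0477 to 0.0666 in the C57 MNX libraries, so 12 of 12 had the nuclear profile opposite to their tag. The groups are therefore called by their titles, and the mitochondrial label of these libraries could not be tested. ACF replicate 489 of C57 wt stood apart: its 8 cardiomyocyte markers had a summed CPM of 8430, where the remaining 47 libraries ranged from 34600 to 69800. Its 6 erythrocyte markers summed to 69600, where the remaining libraries ranged from 8.98 to 313. ACF values of C57 wt and of the mean over groups are therefore given with and without it. The defining cardiomyocyte markers were present in all libraries, and so were the 10 endothelial markers, which summed to 312 to 1390 CPM.

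Promoter sequences of 8 of the 10 genes, all but Spry4 and Dusp4, were searched in RefSeq (GRCm38.p6). Those of Dusp6 and Dusp5 are shown as context. Each is the stretch of 250 bases before the annotated start, read 5′ to 3′ on the + strand, with capitals for matches to the motifs searched. Dusp6 lies at chr10:99262981-99263230 and Dusp5 at chr19:53528895-53529144.
Dusp6: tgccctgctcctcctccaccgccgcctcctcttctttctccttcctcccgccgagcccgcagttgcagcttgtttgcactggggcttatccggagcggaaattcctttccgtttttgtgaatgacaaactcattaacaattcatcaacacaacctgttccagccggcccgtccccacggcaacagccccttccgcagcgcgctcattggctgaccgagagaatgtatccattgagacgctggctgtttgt
Dusp5: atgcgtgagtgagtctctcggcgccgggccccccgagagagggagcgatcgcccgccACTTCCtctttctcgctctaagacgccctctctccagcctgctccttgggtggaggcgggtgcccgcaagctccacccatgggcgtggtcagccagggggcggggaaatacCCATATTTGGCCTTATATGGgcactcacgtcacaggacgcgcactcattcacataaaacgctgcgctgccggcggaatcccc
The motifs, searched on both strands, were the CArG box (the site named for serum response factor), GGAAGT (an ETS core), TGACGTCA (a cyclic AMP response element) and TGANTCA (an AP-1 site). Dusp5 held a pair of CArG boxes, CCATATTTGG from 82 to 73 and CCTTATATGG from 72 to 63 bases before the start, and a match to GGAAGT from 193 to 188 bases before it. A CArG box occurred in 1.47% and GGAAGT in 19.7% of 32851 promoters of the same length. Dusp6 held none of the 4, which says only that these letters are not in this window. Of the other promoters searched, Spred2 held a match to GGAAGT and the rest, Dusp7 with them, held none. The reference is of a C57BL/6J mouse, and C3H variants are not shown.

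Spry4, a Sprouty gene, was higher after ACF in the C3H MNX libraries. It had 18.2, 21.8 and 14.6 CPM in C3H MNX ACF libraries, against 3.93, 6.24 and 5.68 CPM in C3H MNX sham libraries, and the groups did not overlap. The means were 18.2 ± 3.63 CPM with ACF and 5.28 ± 1.21 CPM with sham (SD, n = 3 each), a log2 difference of 1.79 (SE 0.266). In C57 MNX it had 9.08, 7.86 and 8.36 CPM with ACF, against 7.27, 5.16 and 8.51 CPM with sham. In C3H wt it had 7.62, 6.10 and 9.62 CPM with ACF, against 5.32, 3.43 and 6.38 CPM with sham. These pairs of groups overlapped, and their log2 differences were 0.27 (SE 0.265) and 0.62 (SE 0.264). In C57 wt it had 6.24, 10.0 and 7.70 CPM with ACF, the middle value from replicate 489, against 4.55, 5.93 and 7.54 CPM with sham, and the log2 difference of 0.41 was 0.24 without that replicate. All 3 C3H MNX ACF libraries stood above each of the other 21 libraries of the experiment. Their titles also share a code, L8, which no label explains. The other 4 libraries with that code had 6.24, 6.38, 8.36 and 8.51 CPM, 3 of them sham, and with the code as a covariate the log2 difference in C3H MNX was 1.58. Spry4 was the 1 gene of 13440 (0.00744%) past the threshold in C3H MNX, which is given as a description. It was no longer past it with the code as a covariate, or without any 1 of ACF replicates 6650 and 6662 and sham replicates 6649, 6652 and 6661 (log2 differences 1.61 to 1.92).

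Dusp6, the cytoplasmic ERK phosphatase, was higher with ACF in all 4 title groups on average. It had 13.3, 12.2 and 19.0 CPM in C3H MNX ACF libraries, against 7.26, 6.44 and 6.18 CPM in C3H MNX sham libraries, a log2 difference of 1.16 (SE 0.261). In C3H wt it had 12.1, 7.83 and 9.30 CPM with ACF, against 6.90, 4.56 and 7.23 CPM with sham, a log2 difference of 0.65 (SE 0.262). In both of these the lowest ACF library lay above the highest sham library. In C57 MNX it had 7.85, 10.2 and 11.4 CPM with ACF, against 6.52, 7.49 and 9.04 CPM with sham, with overlap and a log2 difference of 0.35 (SE 0.264). In C57 wt it had 6.95, 16.1 and 9.88 CPM with ACF, against 6.20, 6.65 and 7.28 CPM with sham. The 16.1 CPM belonged to replicate 489, and the C57 wt log2 difference of 0.71 was 0.35 without it. Counted within title groups, 10 of the 12 ACF libraries, replicate 489 with them, lay above the highest sham library of their group. That was the largest such count among the 10 genes. The count was not made for other genes, so it is a description only. Dusp6 was highest in ACF replicate 6756 of C3H MNX, and without that library the log2 difference there was 0.94.

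**Figure D1:**
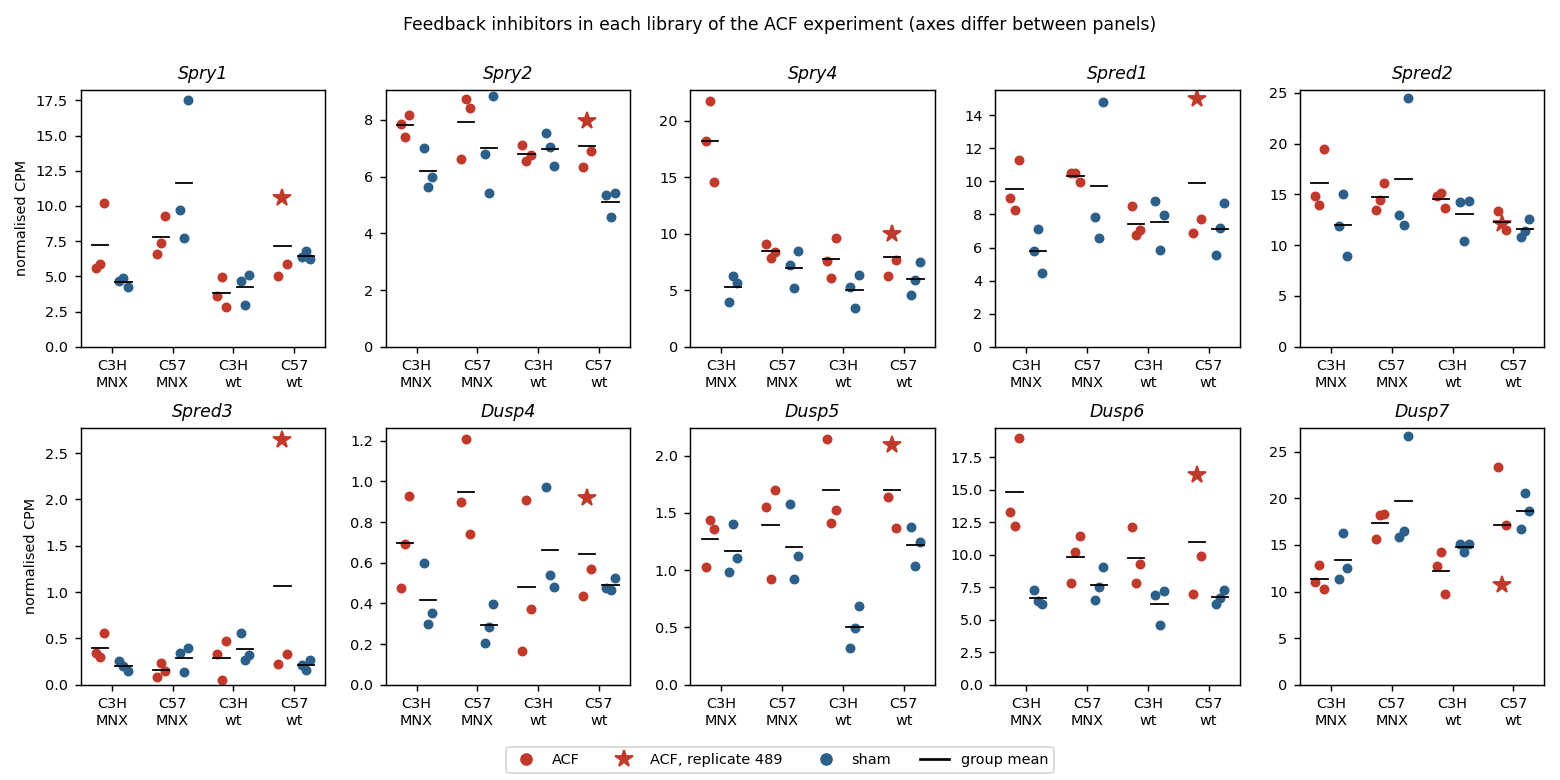
Normalised CPM of the 10 feedback inhibitors (vertical axis, from 0, scale differing by panel) in each of the 24 libraries of the ACF experiment, by title group, with ACF left of sham, bars at group means and a star for replicate 489. Spry4 stands at 14.6 to 21.8 CPM in C3H MNX ACF libraries and at 3.93 to 6.24 CPM in C3H MNX sham libraries, and Dusp5 is low in C3H wt sham libraries.

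Dusp5, the nuclear ERK phosphatase, had its largest ACF difference in another group. It had 2.15, 1.41 and 1.53 CPM in C3H wt ACF libraries, against 0.324, 0.497 and 0.691 CPM in C3H wt sham libraries, a log2 difference of 1.74 (SE 0.325). Those sham libraries held 7 to 13 counts each. In the other 3 title groups ACF libraries had 0.925 to 2.09 CPM, against 0.919 to 1.58 CPM in sham libraries, with log2 differences of 0.14 in C3H MNX, 0.20 in C57 MNX and 0.47 in C57 wt (0.32 without replicate 489). The C3H wt sham libraries were the 3 lowest of the 24, while the C3H wt ACF libraries overlapped with both surgeries of the other groups.

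Dusp4, the nuclear phosphatase of broader range, was a low-count gene with 3 to 21 counts a library. It had 0.899, 1.21 and 0.740 CPM in C57 MNX ACF libraries, against 0.206, 0.283 and 0.396 CPM in C57 MNX sham libraries, with no overlap and a log2 difference of 1.67 (SE 0.529). In the other title groups its log2 differences were 0.71, -0.44 and 0.38 for C3H MNX, C3H wt and C57 wt, the last one 0.06 without replicate 489. Dusp7, the second cytoplasmic ERK phosphatase, had log2 differences from -0.27 to -0.13 in the 4 title groups, and 0.13 in C57 wt without replicate 489.

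The remaining Sprouty and Spred genes differed less. Spry2, a Sprouty that restrains receptor signalling, had 6.35, 7.98 and 6.90 CPM in C57 wt ACF libraries, against 5.35, 4.57 and 5.44 CPM in C57 wt sham libraries, with no overlap and a log2 difference of 0.47, or 0.39 without replicate 489. In C3H MNX its groups did not overlap either, with 7.39 to 8.18 CPM in ACF libraries and 5.64 to 7.00 CPM in sham libraries. Spry1, another Sprouty gene, had log2 differences of 0.63 in C3H MNX and -0.58 in C57 MNX. Single libraries weighed on both values: without ACF replicate 6756 the first was 0.31, and without C57 MNX sham replicate 6763, at 17.5 CPM, the second was -0.17. In C57 wt, Spry1 had 5.03, 10.6 and 5.86 CPM with ACF, the middle value from replicate 489, against 6.35, 6.81 and 6.23 CPM with sham. The log2 difference there was 0.14 with that replicate and -0.23 without it, when both remaining ACF libraries lay below every sham library. Spred1 had log2 differences of 0.71, 0.09, -0.02 and 0.47 in C3H MNX, C57 MNX, C3H wt and C57 wt, and without replicate 489 the last was 0.06. Spred2 lay between -0.17 and 0.43 in the 4 groups. Spred3 had 2.64 CPM in replicate 489 and 0.0455 to 0.558 CPM in the other libraries of the experiment.

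**Figure D2:**
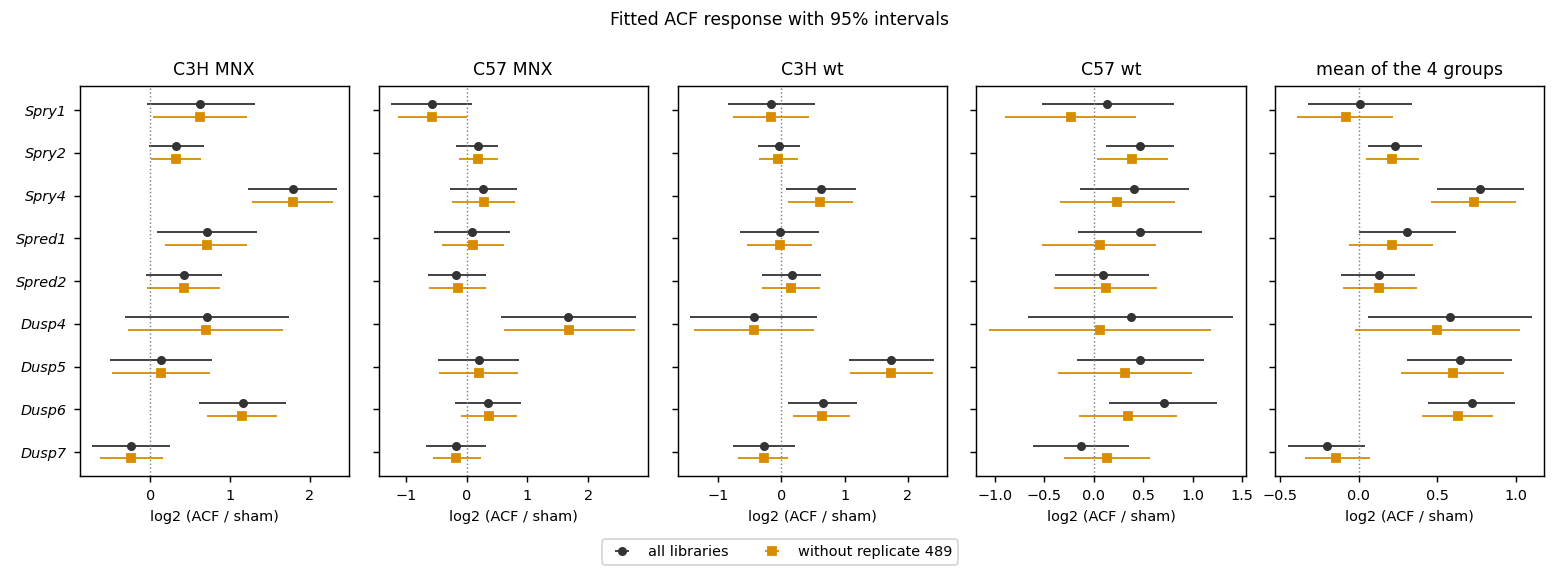
Fitted log2 difference, ACF over sham (horizontal axis), with 95% intervals for the 9 genes tested, in each title group and as the mean of the 4, with all libraries (circles) and without replicate 489 (squares). Spry4 in C3H MNX (1.79) and Dusp5 in C3H wt (1.74) keep these values without the replicate, and the C57 wt values of Dusp6, Spred1 and Spry1 move left.

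Over the mean of the 4 title groups, the log2 difference was 0.77 (SE 0.132) for Spry4, 0.72 (SE 0.131) for Dusp6, 0.64 (SE 0.157) for Dusp5 and 0.58 (SE 0.250) for Dusp4. It was 0.31 for Spred1, 0.23 for Spry2, 0.13 for Spred2, 0.01 for Spry1 and -0.20 for Dusp7. Spry4 and Dusp6 were 2 of the 37 genes past the adjusted threshold in that comparison (0.275% of 13440 genes), and nothing is read from that count since such values led to the choice of the genes. Dusp6 fell short of the threshold without any 1 of C3H MNX sham 6661, C3H wt sham 483, C57 MNX ACF 6692, C57 MNX sham 6659, and C57 wt sham 464 and 467 (log2 differences 0.67 to 0.71). Of the 9 genes, 8 had a positive sign, against 50.3% of all genes, and their median was 0.31, against 0 for all genes. Without replicate 489 the values were 0.73 for Spry4, 0.63 for Dusp6, 0.60 for Dusp5 and -0.08 for Spry1, and the median of the 9 was 0.21, with 125 of 13544 genes past the threshold (0.923%), Spry4 and Dusp6 again among them. By title group the median of the 9 was 0.63 in C3H MNX, 0.18 in C57 MNX, -0.02 in C3H wt and 0.41 in C57 wt, the last 0.13 without replicate 489. Every ACF library lay above every sham library for 6 of the 10 genes in C3H MNX, Spred3 with them, beside 5.1% of the 13440 genes that passed the filter. The count was 1 in C57 MNX (4.62%), 2 in C3H wt (12.9%) and 1 in C57 wt (4.11%). Without replicate 489, C57 wt had 1 gene wholly above, Spry2 (10.4%), and 1 wholly below, Spry1 (10%). The difference of the ACF response between title groups was tested for all genes with edgeR's quasi-likelihood test on 3 degrees of freedom: 0 genes passed, 407 had an unadjusted p under 0.05 (3.03% of genes), and DESeq2 called 1. Spry4 and Dusp5 were among those 407, which is again a description, since these differences led to the choice of the genes.

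In 3 libraries of the ACF experiment, high levels of the feedback inhibitors came with high sums of endothelial, fibroblast and macrophage markers. Sums of cardiomyocyte markers were low in them. Ranked within the ACF experiment and averaged over the 10 genes, the highest libraries were C3H MNX ACF replicate 6756, C57 wt ACF replicate 489 and C57 MNX sham replicate 6763, with mean ranks of 19.3, 19.0 and 18.9 of 24. The 10 endothelial markers summed to 1290, 1180 and 1390 CPM in these libraries, the 3 highest sums of the 24. Fibroblast markers summed to 1030, 2050 and 618 CPM and macrophage markers to 178, 346 and 125 CPM, again the 3 highest sums. Cardiomyocyte markers summed to 34600, 8430 and 38000 CPM, the 3 lowest sums. The next highest endothelial sum, 834 CPM, was in C3H wt sham replicate 482, which had a mean rank of 12.5. Replicate 6763, a sham library, had the highest level of Spry1, Spry2, Spred2 and Dusp7. In C3H MNX the endothelial sum was 550 to 1290 CPM in ACF libraries and 421 to 612 CPM in sham libraries, and none of the 10 markers was at 0. The 8 smooth muscle and pericyte markers summed to 183, 247 and 346 CPM in C3H MNX ACF libraries. In C3H MNX sham libraries they summed to 182, 163 and 171 CPM. The groups nearly touched, at 183 and 182 CPM, and the highest sum was in ACF replicate 6756. Replicate 6756 also had the highest fibroblast and macrophage sums of its group and of C3H MNX sham, 1030 and 178 CPM, while its Spry4 level was the lowest of the 3 ACF libraries. The part of these markers in the differences of the feedback inhibitors was not tested. In bulk RNA, fewer cells of a type and less RNA per cell cannot be told apart.

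**Figure D3:**
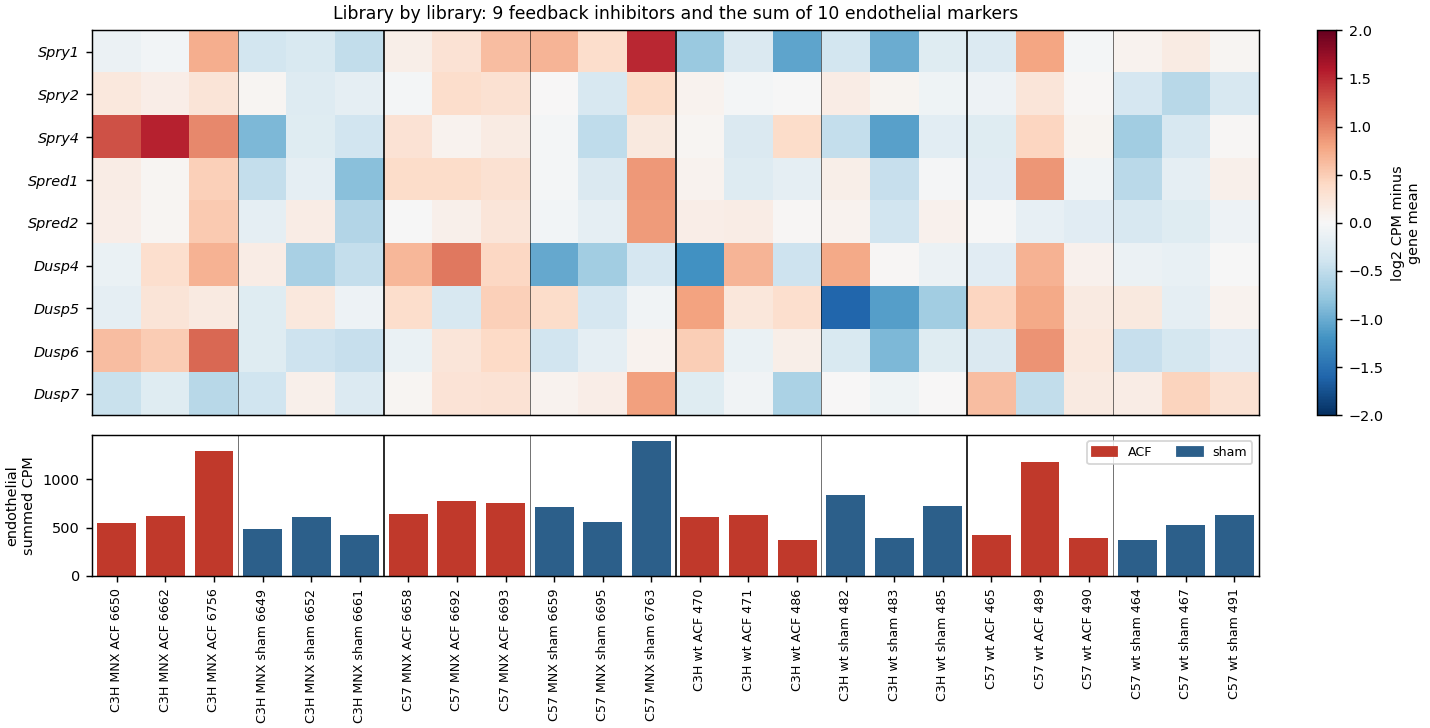
Upper panel, log2 CPM of 9 feedback inhibitors minus each gene's mean over the 24 libraries of the ACF experiment (red above, blue below), with libraries grouped by title and ACF left of sham. Lower panel, the summed CPM of 10 endothelial markers in the same libraries, which peaks in replicates 6756, 489 and 6763 at 1290, 1180 and 1390 CPM. Sums of fibroblast and macrophage markers, not drawn, were also highest in these replicates.

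Spry4 and Dusp6 followed each other across libraries, with Spearman coefficients of 0.84 over the 24 libraries of the ACF experiment and 0.70 over the 24 of the other set. These are descriptions, since libraries share depth, groups and cell content. Among 12060 genes tested in both sets, ranked by the lower coefficient of the 2 sets, the pattern of Spry4 was most like those of Enc1 (0.79), Klf4 (0.75), S1pr1 (0.74), Sgk1 (0.73) and Apold1 (0.73). For Dusp6 the closest were Cnn2 (0.85), Plaur (0.82), Enc1 (0.79), Ctla2a (0.77) and Tagln2 (0.75). Spred1 was the next feedback inhibitor in likeness to Spry4 (0.64) and Dusp7 the least alike (-0.39).

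The rest of the pathway was examined through 96 listed genes, of which 95 were in the table and 86 were tested in the ACF experiment. In the mean of the 4 title groups 0 of the 86 passed the threshold, and 18 were higher and 4 lower at an unadjusted p under 0.05 (11.3% of all genes in either direction). The ERK-responsive list holds transcription factors and other targets known to follow pathway activity. Of its members tested, 13 of 13 had a positive sign, against 50.3% of all genes. Their median log2 difference was 0.67, against 0 over all genes. The pathway lists were chosen with earlier results of these data known, so these ACF values are a description. By title group the median was 0.62 in C3H MNX, 0.19 in C57 MNX, 0.20 in C3H wt and 1.59 in C57 wt. In C57 wt it was 0.62 without replicate 489. Over the mean of the 4 groups it was 0.43 without that replicate. Etv5, an ETS factor induced by ERK, then passed at a log2 difference of 0.74 (SE 0.175, edgeR adjusted p = 0.0482), and Mapk4, an atypical MAP kinase, at 0.68 (SE 0.136, edgeR adjusted p = 0.0198). With that replicate they were at 0.67 and 0.61 with adjusted p of 0.141 and 0.0919. Ligands and receptors had medians of 0.14 each, against 0.01 and 0.10 without that replicate. Adaptors and exchange factors, the RAS to ERK kinases and other negative regulators had medians of 0.02, 0.06 and 0.02, and of 0.03, 0.02 and 0.03 without it. Fgf18, a growth factor ligand, was at 0.63 (adjusted p = 0.143), and Dusp1, a stress-induced phosphatase gene, at 0.50 (adjusted p = 0.278).

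Baseline levels by nuclear background were tested in the set without surgery words, with 12 C3Hn and 12 C57n sham libraries. Spry2 was higher and Spry1 and Dusp7 lower with the C3H nucleus. These 3 of 9 genes stood beside 35.7% of all 13395 genes past the threshold, so the share is near the background.

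Spry2 had 12.8 to 16.3 CPM in C3Hn libraries, with a median of 14.3, and 7.64 to 13.7 CPM in C57n libraries, with a median of 12.1. The spread within groups was small for this gene, and 9 of 12 C3Hn libraries lay above the highest C57n library. The log2 difference was 0.27 (SE 0.0687, edgeR adjusted p = 0.00341). It was 0.22 with C57 mitochondria alone (adjusted p = 0.0909, with 31.9% of genes past the threshold) and 0.31 with C3H mitochondria alone (adjusted p = 0.0224, with 19.4%). Between the wild-type sham groups of the ACF experiment Spry2 had 7.54, 7.05 and 6.38 CPM in C3H wt, against 5.35, 4.57 and 5.44 CPM in C57 wt. The log2 difference of 0.45 did not pass (SE 0.163, adjusted p = 0.193).

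Spry1 had 4.37 to 10.4 CPM in C3Hn libraries, with a median of 7.13, and 7.03 to 16.1 CPM in C57n libraries, with a median of 9.93. Of the 12 C3Hn libraries 5 lay below the lowest C57n library, and the log2 difference was -0.50 (SE 0.125, adjusted p = 0.00243). With C57 mitochondria alone it was -0.77 (edgeR adjusted p = 0.00136, with 31.9% of genes past the threshold). With C3H mitochondria alone it was -0.23 (edgeR adjusted p = 0.420). In the ACF experiment C3H wt sham libraries had 4.68, 2.98 and 5.11 CPM, against 6.35, 6.81 and 6.23 CPM in C57 wt sham libraries, a log2 difference of -0.61 that did not pass (adjusted p = 0.550).

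Dusp7 had 20.5 to 35.9 CPM in C3Hn libraries, with a median of 25.6, and 23.9 to 52.8 CPM in C57n libraries, with a median of 32.6. The ranges overlapped widely, and the log2 difference was -0.41 (SE 0.130, adjusted p = 0.0148). It was -0.28 with C57 mitochondria alone, which did not pass (edgeR adjusted p = 0.249). With C3H mitochondria alone it was -0.54 (edgeR adjusted p = 0.0399, with 19.4% of genes past the threshold). The 4 highest C57n values, 52.8, 51.4, 49.4 and 43.2 CPM, came from both mitochondrial backgrounds. Between the wild-type sham groups of the ACF experiment it was -0.33 (adjusted p = 0.771).

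**Figure D4:**
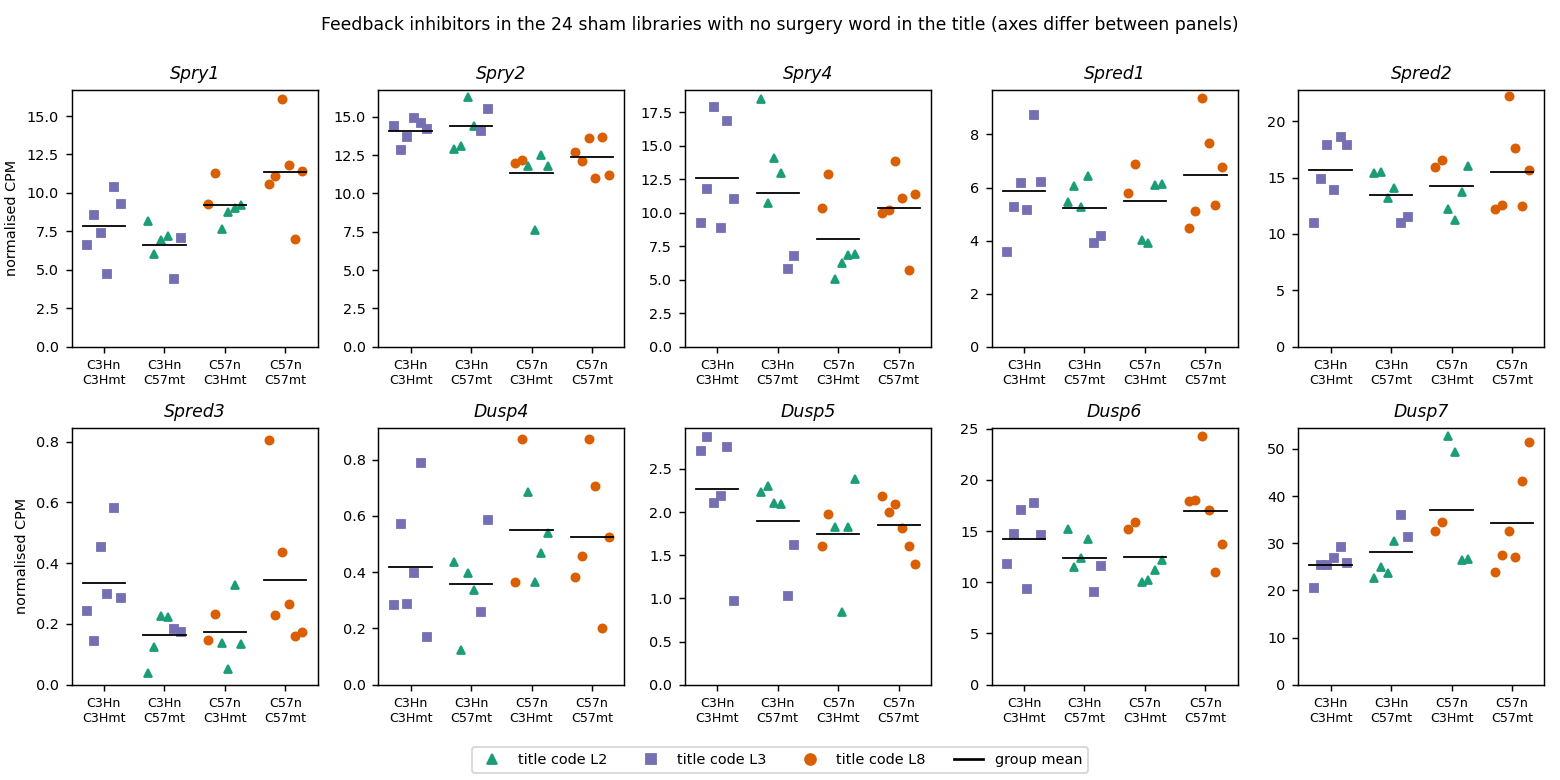
Normalised CPM of the 10 feedback inhibitors (vertical axis, from 0, scale differing by panel) in the 24 sham libraries without a surgery word, by genotype, with C3H nuclei left of C57 nuclei, bars at group means and symbols for the code in the titles. Spry2 lies at 12.8 to 16.3 CPM in C3Hn and 7.64 to 13.7 CPM in C57n libraries, and Spry4 separates by code within both exchanged genotypes.

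The title code was not balanced over these groups, which bears on each of the nuclear differences. All 6 C3Hn:C3Hmt libraries carry L3 and all 6 C57n:C57mt libraries carry L8. The C3Hn:C57mt libraries are 4 of L2 and 2 of L3, and the C57n:C3Hmt libraries 4 of L2 and 2 of L8. Only L2 therefore holds both nuclei, and there nucleus and mitochondria differ together. Within L2, Dusp7 differed by -0.64 (SE 0.214, adjusted p = 0.0406), Spry2 by 0.34 (adjusted p = 0.0863) and Spry1 by -0.32 (adjusted p = 0.0536). Past the threshold within L2 were 3892 genes, against 4776 with all 24 libraries (35.7% of 13395 genes), so passing was common in both. With the code as a covariate Dusp7, Spry2 and Spry1 were at -0.83, 0.32 and -0.13, with adjusted p of 0.0661, 0.223 and 0.823.

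Spry4 showed the widest dependence on the code. Over all 24 libraries it had 5.84 to 18.5 CPM with the C3H nucleus and 5.08 to 13.9 CPM with the C57 nucleus, a log2 difference of 0.40 (SE 0.187) that did not pass (adjusted p = 0.0950). Within L2 the C3Hn:C57mt libraries had 18.5, 10.7, 14.1 and 13.0 CPM and the C57n:C3Hmt libraries 5.08, 6.22, 6.86 and 6.91 CPM. The log2 difference was 1.14 (SE 0.162, edgeR adjusted p = 0.000252), beside 3892 genes past the threshold within L2, where passing was common. The other libraries of the same genotypes went the opposite way, with 5.84 and 6.76 CPM in C3Hn:C57mt of L3 and 10.4 and 12.9 CPM in C57n:C3Hmt of L8. With the code as a covariate the nuclear difference was 1.76 (SE 0.306, edgeR adjusted p = 0.000304), beside 1399 of 13395 genes past the threshold. Spry4 was also called, with the code left out, in fits without C3Hn:C57mt replicate 17 or without C57n:C3Hmt replicate 8. Within both exchanged genotypes the level of Spry4 thus differed by code, and the reason was not tested. Each wild-type genotype carries a single code, so there code and genotype cannot be told apart.

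The other 5 genes tested did not pass for the nucleus. Dusp4 was at -0.45 (adjusted p = 0.189), Dusp5 at 0.21 (adjusted p = 0.354) and Dusp6 at -0.13 (adjusted p = 0.423). Spred1 and Spred2 were at -0.11 and -0.03, with 95% intervals from -0.40 to 0.18 and from -0.25 to 0.19. Dusp6 had a nuclear difference of -0.46 with C57 mitochondria alone (edgeR adjusted p = 0.0407, with 31.9% of genes past the threshold). It was 0.19 with C3H mitochondria alone (edgeR adjusted p = 0.494, with 19.4%). Neither pair of groups shares a title code. Over 7 alternative fits for the nucleus, these among them, Dusp6 ran from -0.46 to 0.46. The endothelial sum ran from 329 to 697 CPM in C3Hn and from 312 to 938 CPM in C57n libraries. The highest, in C57n:C57mt replicate 3, was in the library with the top level of Spry1, Spred1, Spred2, Dusp4 and Dusp6. By mean rank over the 10 genes C3Hn:C3Hmt replicate 23 stood first, at 21 against 20.6 for replicate 3. Replicate 23 had an endothelial sum of 697 CPM and the highest fibroblast sum of the set, 767 CPM. The part of these markers in these values was not tested.

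Dusp5 was the feedback inhibitor that differed between the wild-type strains of the ACF experiment. It had 0.324, 0.497 and 0.691 CPM in C3H wt sham libraries, against 1.38, 1.04 and 1.25 CPM in C57 wt sham libraries. The log2 difference was -1.27 (SE 0.329, edgeR adjusted p = 0.0308), and 1 of 9 genes passed beside 3.76% of all genes. The same 3 C3H wt sham libraries enter the ACF difference of 1.74 above, so both rest on their low values. In the set without surgery words, wild-type C3Hn:C3Hmt libraries had 0.971 to 2.87 CPM and C57n:C57mt libraries 1.40 to 2.19 CPM, a log2 difference of 0.31 of the opposite sign (adjusted p = 0.394, with 22.6% of genes past the threshold). The call was also lost in 5 of the 24 fits that left out 1 library, those without C3H wt sham replicate 482 or 483 or any of the 3 C57 wt sham libraries (adjusted p 0.0535 to 0.209). With no filter on low counts Dusp5 was at -1.26 (adjusted p = 0.0566), with the title code as a covariate at -1.52 (adjusted p = 0.111), and with the libraries of both groups alone at -1.27 (adjusted p = 0.0750).

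**Figure D5:**
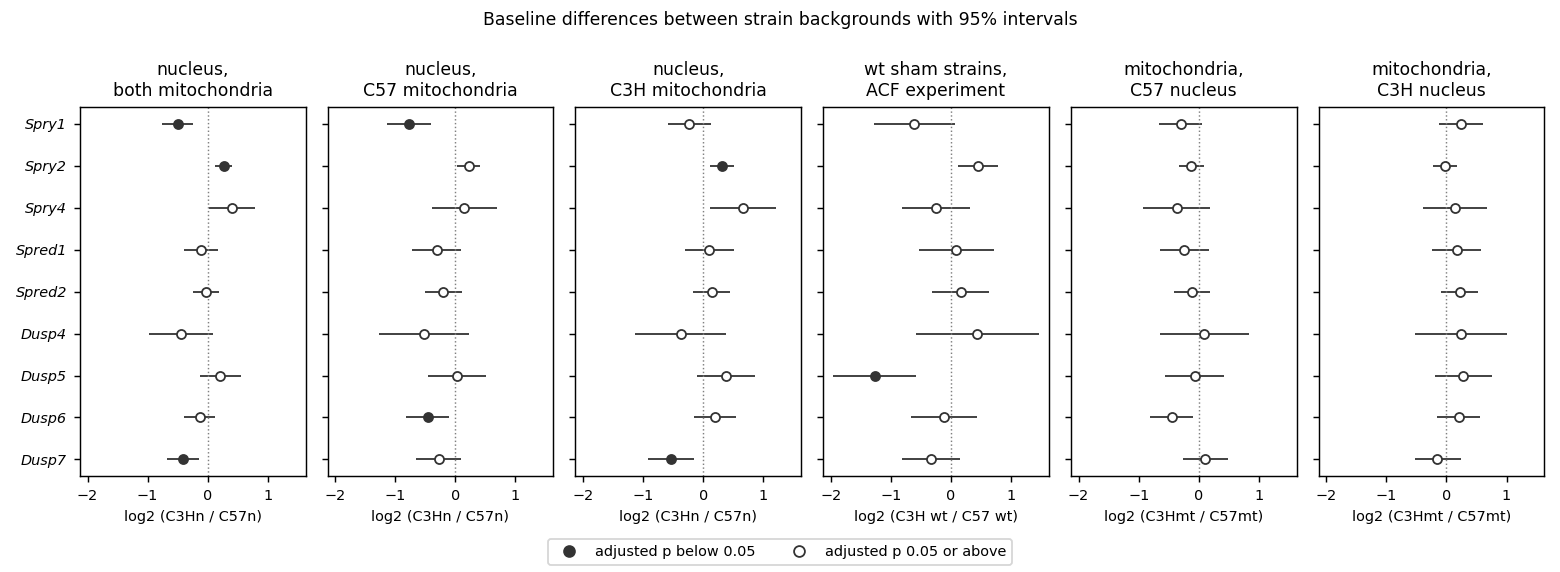
Log2 differences with 95% intervals (horizontal axes) of the 9 genes tested, from left to right for the C3H over the C57 nucleus, the same within each mitochondrial background, C3H wt over C57 wt sham of the ACF experiment, and C3H over C57 mitochondria on each nucleus; filled points passed an adjusted p of 0.05. Spry1 (-0.50), Spry2 (0.27) and Dusp7 (-0.41) are filled for the nucleus, Dusp5 (-1.27) for the wild-type strains, and no point is filled for mitochondria.

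Mitochondrial background gave no difference past the threshold for any of the 9 genes. On the C57 nucleus 0 of 13395 genes passed in edgeR (1509 at an unadjusted p under 0.05, and 15 by DESeq2), and on the C3H nucleus 1 gene (0.00747%) passed. Dusp6 had 10.0 to 15.9 CPM in C57n:C3Hmt libraries, with a median of 11.7, and 11.0 to 24.3 CPM in C57n:C57mt libraries, with a median of 17.5. Its log2 difference of -0.45 (95% interval -0.81 to -0.10, adjusted p = 0.336) did not pass, and within L8, the only code both groups share, it was -0.12 from 2 against 6 libraries. On the C3H nucleus Dusp6 was at 0.21 (95% interval -0.15 to 0.56). There it ran from 0.20 to 0.47 over 5 alternative fits, the fit within L3 among them, and was not called in any. The difference between the nuclei, 0.66 (SE 0.244, adjusted p = 0.178), did not pass either; 0 genes passed in this comparison in edgeR (2188 at an unadjusted p under 0.05), and DESeq2 called 332. Intervals of the other 8 genes reached from -0.92 to 0.83 on the C57 nucleus and from -0.52 to 1.01 on the C3H nucleus, so moderate differences remain possible. Over the same alternative fits on the C3H nucleus, Spry4 ran from 0.13 to 1.02 and Dusp5 from 0.27 to 0.79, not called in any.

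Sham libraries of exchanged animals were also set against wild type of the same title strain. Spry1 had 9.74, 7.70 and 17.5 CPM in C57 MNX sham libraries, against 6.35, 6.81 and 6.23 CPM in C57 wt sham libraries. Its log2 difference of 0.85 did not pass (SE 0.319, adjusted p = 0.992). Spred2 and Spry2 were at 0.51 and 0.46 there with the same adjusted p. Without replicate 6763, the library of highest endothelial sum, the values were 0.43 for Spry1, 0.11 for Spred2 and 0.26 for Spry2. Dusp5 had 0.982, 1.40 and 1.11 CPM in C3H MNX sham libraries, against 0.324, 0.497 and 0.691 CPM in C3H wt sham libraries, a log2 difference of 1.2 (SE 0.327, adjusted p = 1). That comparison again shares the low C3H wt sham libraries. In edgeR 2 genes (0.0149%) passed for C3H MNX over C3H wt sham and 0 for C57 MNX over C57 wt sham (296 at an unadjusted p under 0.05, 0 by DESeq2), none of them a feedback inhibitor.

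Of 84 listed pathway genes tested in the sham set without surgery words, 12 were higher and 9 lower with the C3H nucleus. Their share past the threshold was below that of all genes, 35.7% in either direction, so the genes named next are examples and not a result about the pathway. Met, the hepatocyte growth factor receptor, was higher by 1.84 (SE 0.117), Mapk4 by 0.92 (SE 0.152) and Fgf9, a ligand, by 0.66 (SE 0.0738). Among negative regulators Lrig1, a brake on ERBB receptors, was higher by 0.51 (SE 0.0824), and Rasa1, a RAS GTPase-activating protein, lower with a log2 difference of -0.50 (SE 0.0739). The ERK-responsive genes had 1 member higher, Egr3 (0.80), and 3 lower, Ccnd1 (-0.76), Ier3 (-0.54) and Myc (-0.86), and a median of -0.05 over 13 tested. Between the wild-type sham groups of the ACF experiment, Fgf9 (0.83, adjusted p = 0.0115) and Lrig1 (0.82, adjusted p = 0.00101) were the 2 of 86 pathway genes that passed, beside 3.76% of all genes, both in the direction of the larger set. Without ACF replicate 489, which enters that fit through the shared estimate of spread, 5 of 86 pathway genes passed beside 6.49% of all genes, Met and Mapk4 with them at 1.78 and 0.98.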

How the data were processed

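RNA of isolated mouse cardiomyocytes was sequenced in 48 libraries. The authors deposited expected counts per gene, estimated by RSEM. Per the submitters' processing notes, the tools were RSEM 1.2.0, CASAVA 1.8.2 and Bowtie, with build mm9, while the labels' protocol also describes mapping by the sequencing provider, so which steps made the table is not given in the sources used here. Of the deposited values 13.9% were not whole and all were rounded. Groups came from the titles. The sets with and without a surgery word were normalised and fitted separately with edgeR 4.0.16 (TMM, filterByExpr, quasi-likelihood test, R 4.3.3), with Benjamini-Hochberg adjustment over all genes tested (13440 and 13395) and a threshold of 0.05. CPM are counts per M library counts after TMM (M stands for mega), and standard errors are the log2 difference over the root of F. The groups of each set shared 1 estimate of spread. The test was tried on simulated data. DESeq2 1.42.0, other filters, the title code as a covariate and leaving out each library were alternatives.

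The 10 genes, the pathway and marker lists were chosen with earlier results of these data known. All 10 genes are named; of each pathway list, genes past the threshold or else the 2 of smallest p were eligible, and examples of these are given. No 2 libraries of a group agreed within counting noise (lowest chi-square per degree of freedom 4.042 over 84 pairs). Replicate numbers do not repeat between groups. P-values therefore reflect only how far these libraries spread. Genes of few counts, such as Dusp4 and Dusp5, are limited by counting error.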

Additional observations from a re-analysis of the deposited data

Results flagged for a closer look

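Each of the 10 genes was checked for a single outlying library in each of the 4 groups of 6 sham libraries. Among these 40 checks 3 outliers were found, where chance alone gives about 1 in 20. The checks share the same libraries and are not independent. Spry2 in C57n:C3Hmt replicate 10 had 7.64 CPM (log2 value 2.95), against 11.8 to 12.5 CPM in the other libraries of its group, and without it the nuclear difference of Spry2 was 0.22 (edgeR adjusted p = 0.00226). Spry4 in C57n:C57mt replicate 5 had 5.70 CPM (log2 value 2.53), against 9.98 to 13.9 CPM in the others, and without it the nuclear difference was 0.34 (edgeR adjusted p = 0.149). Dusp5 in C3Hn:C3Hmt replicate 24 had 0.971 CPM (log2 value 0.08), against 2.10 to 2.87 CPM in the others, and without it the nuclear difference was 0.28 (edgeR adjusted p = 0.142).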

How the results depend on the processing

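Counts of genes past the threshold are given here. With DESeq2 they were 244 for the mean ACF difference, 3 in C3H MNX, 1 in C57 MNX, 83 in C3H wt, 176 in C57 wt, 1 for the difference of response, 7 for C3H MNX over C3H wt sham, 15 and 7 for mitochondria on the C57 and C3H nucleus, and 332 for the difference between the nuclei. With the title code as a covariate they were 0 for ACF in C3H MNX, 279 for the wild-type sham strains, 0 for C3H MNX over C3H wt sham, 1399 for the nucleus, 30 for mitochondria on the C3H nucleus and 2 for the difference between nuclei. Without replicates 489 and 6756 they were 344 for the mean, 2 in C3H MNX, 192 in C3H wt, 1 in C57 wt and 1 for the difference of response. With both groups alone the count in C3H MNX was 0. Within L8 it was 5 for mitochondria on the C57 nucleus, and within L3 63 on the C3H nucleus. Chosen after the data were seen were the nucleus with C57 or C3H mitochondria alone (the second 2599), within L2, and the wild-type strains without surgery words (3033, where Dusp5 turned to 0.31).

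Leaving out 1 library gave 12 (without 467) to 174 (without 465) for the mean, 0 to 1 in C3H MNX, 0 to 0 in C57 MNX, 0 to 69 (without 489) in C3H wt, 0 to 874 (without 465) in C57 wt, and 0 to 0 for the difference of response. It gave 325 (without 467) to 879 (without 489) for the wild-type sham strains, 1 to 2 for C3H MNX and 0 to 0 for C57 MNX over wild-type sham, 4456 to 5266 for the nucleus, 0 to 2 and 1 to 1 for mitochondria on the C57 and C3H nucleus, and 0 to 422 (without C57n:C57mt replicate 5) for the difference between nuclei. Of 3182 alternative values of the 9 genes 79 changed sign, and 181 of 211 past the threshold stayed past it. The cause was not tested. No paired analysis was possible because no replicate number is shared between groups.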
